A study of Mus musculus with 10 samples.

Results

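The genes described here are 10 that make, carry and place docosahexaenoic acid (DHA) and fatty acids of very long chain in the retina. They were taken by name: the elongases Elovl2, Elovl4 and Elovl5, the desaturases Fads1 and Fads2, the lipid transporter Mfsd2a, the acyl-CoA synthetase Acsl6, the acyltransferases Agpat3 and Lpcat1, and the adiponectin receptor Adipor1. All 10 were among the 11702 genes of the deposited tables, and all 10 passed the filter on low counts in every comparison. The membranes of photoreceptor outer segments are among the richest in DHA in the body. The retina builds DHA from shorter precursors by rounds of desaturation and elongation, takes it up from the blood as a lysophospholipid, activates it with coenzyme A and esterifies it into phospholipids. Loss of Elovl4, Mfsd2a, Acsl6, Agpat3, Lpcat1 or Adipor1 disturbs the lipids or the survival of photoreceptors in mice.

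The samples were 10 RNA-seq libraries of whole retina from female mice. The study collected the retinas of its rd10 experiment at P36, and the labels give no age. In the rd10 mouse (strain B6.CXB1-Pde6brd10/J in the labels), Pde6b is mutated. The gene encodes a subunit of the rod phosphodiesterase, and rods die early in life. The groups were 3 rd10 libraries from retinas given halofantrine, an antimalarial drug (rd10 HAL, libraries H1 to H3), 3 given the vehicle DMSO (rd10 DMSO, D1 to D3) and 4 wild-type libraries given DMSO (WT DMSO, W1 to W4). Each injection placed 1 μL of 20 μM halofantrine or of DMSO into the vitreous at P10 and again at P24, so all groups share the injections and their anesthesia. The labels name no strain for WT and do not say that each library came from another mouse, so p-values measure the spread between these libraries. Batch 2 of the labels held D3 with H2 and H3, and batch 1 the other 7 libraries. What a batch was is not stated there. No uninjected retina and no WT retina with halofantrine was analysed here.

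Libraries held 15512212 to 38160436 counts on genes. Levels are given as CPM, counts relative to the library size after TMM scaling. W1, W2 and W3 held 2699, 2850 and 2855 CPM of Pde6b and W4 held 93.1 CPM, below the 125 to 387 CPM of the 6 rd10 libraries. The summed level of 20 rod marker genes was 93629 to 98501 CPM in W1 to W3, 4139 CPM in W4 and 5131 to 14313 CPM in rd10 retinas. The library labelled WT W4 therefore went against its label, and each comparison with WT is given with and without it. In bulk retina, fewer cells of a type and less RNA per cell cannot be told apart.

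The rd10 retinas differed from W1 to W3 in all 10 genes, and the genes split by direction. Elovl4, Agpat3 and Adipor1 stood at 23.4%, 21.7% and 24.3% of the level of W1 to W3 in rd10 DMSO, Lpcat1 at 45.9%, and Elovl2 and Acsl6 at 60.3% and 69.9%. Fads1, Fads2 and Elovl5 were at 179%, 161% and 159%, and Mfsd2a was at 299%. The 6 rd10 libraries and W1 to W3 did not overlap in any of the 10 genes, while this held for 63.7% of all genes tested. In edgeR's quasi-likelihood test without W4, 4 of 10 genes were called higher in rd10 DMSO and 6 lower at an adjusted p under 0.05, where 32.3% of the 11696 genes tested were called higher, 29.9% lower and 62.2% in either direction. The median log2 fold change was -0.62 over the 10 genes and -0.01 over all genes tested.

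**Figure D1:**
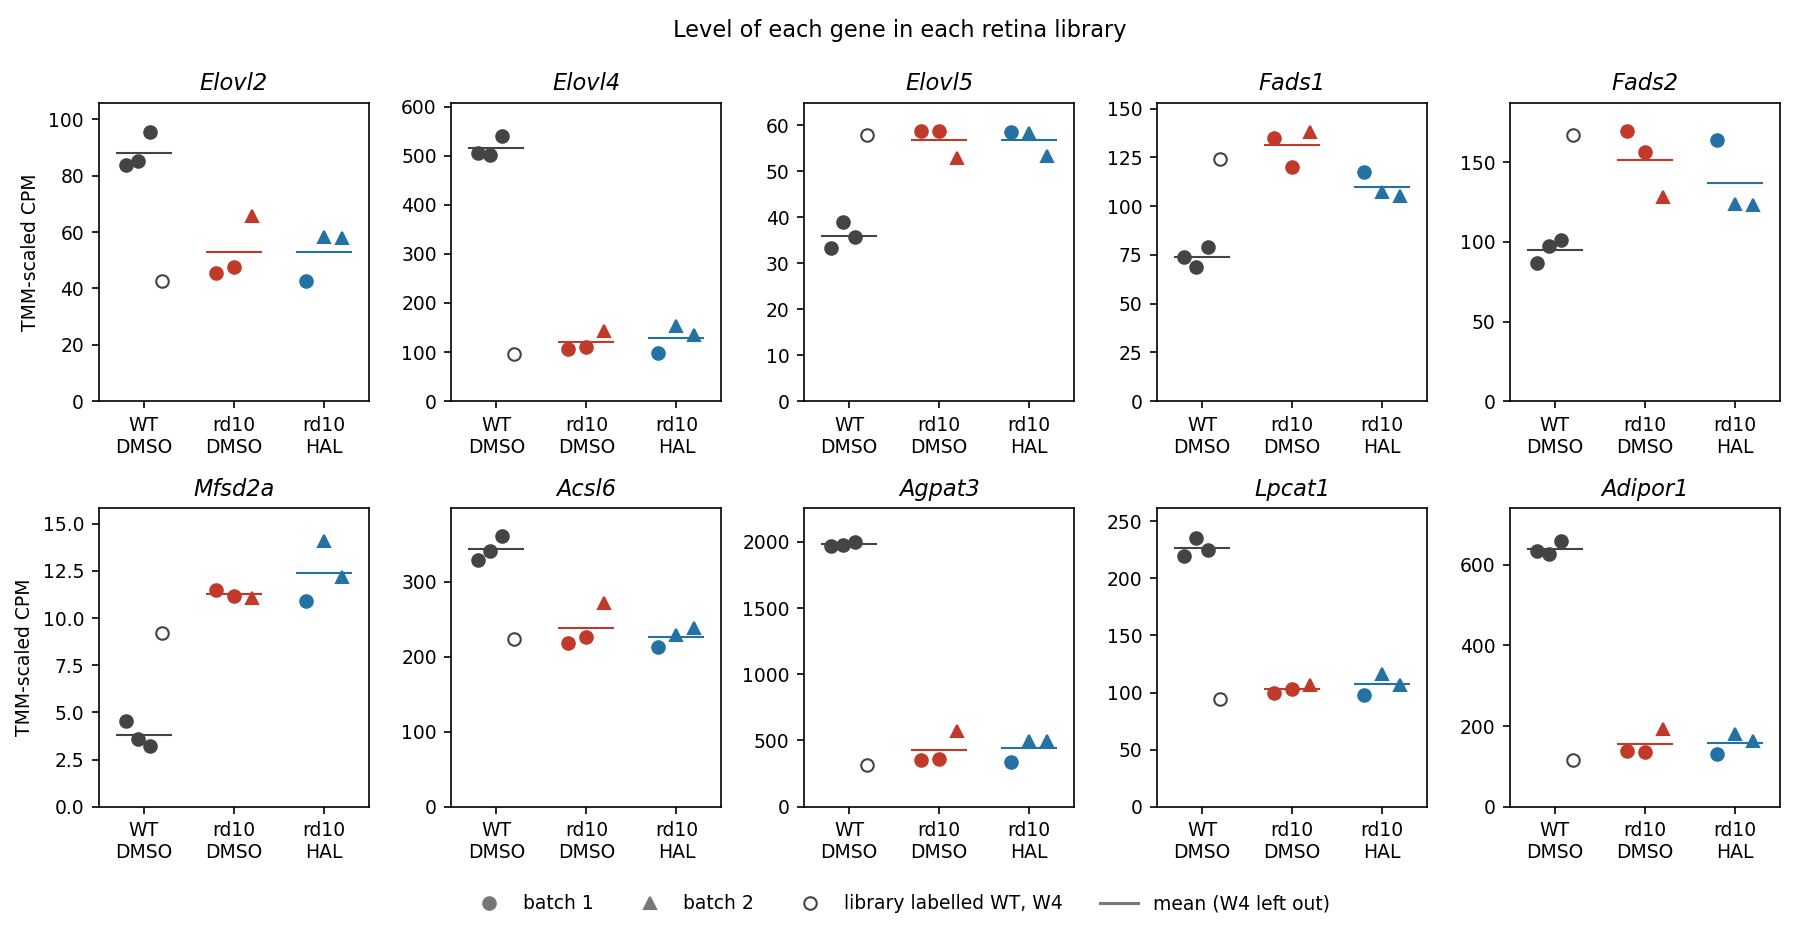
Level of each of the 10 genes (TMM-scaled CPM, each axis from 0) in every library of WT DMSO, rd10 DMSO and rd10 HAL; circles are batch 1, triangles batch 2, the open circle is the library labelled WT W4, and the line is the group mean without W4. W4 sits among or beside the rd10 libraries in each panel, outside the range of W1 to W3.

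With all 4 libraries labelled WT in the fit, 0 of 11698 genes were called in rd10 DMSO (0.0%), and 3108 had an unadjusted p under 0.05. The 10 genes then had log2 fold changes of -1.87 to 1.12, each in the same direction as without W4, with adjusted p of 0.187 to 0.230. DESeq2 called 589 genes with W4 in, among them Elovl4, Agpat3 and Adipor1. W4 was outside the range of W1 to W3 in all 10 genes and nearer to the rd10 mean than to that of W1 to W3 in all 10. It lay inside the rd10 range for Elovl2, Elovl5, Fads1, Fads2 and Acsl6, and below it for Elovl4, Mfsd2a, Agpat3, Lpcat1 and Adipor1. The share of all genes with W4 in such positions was not computed, so these counts are not read as a result about the 10 genes.

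The elongases add carbons to a fatty acid in the endoplasmic reticulum. Elovl4, which makes the very long chain polyunsaturated fatty acids of photoreceptors and is mutated in a Stargardt-like macular dystrophy, stood at 506, 502 and 541 CPM in W1 to W3 and at 96.2 CPM in W4. It was at 105, 111 and 144 CPM in D1, D2 and D3 and at 98.8, 153 and 135 CPM in H1, H2 and H3. The rd10 libraries of both treatments overlapped in range, far under W1 to W3. Elovl4 fell by 2.10 on the log2 scale in rd10 DMSO (SE 0.12, adjusted p = 2.16e-05, edgeR without W4), a 4.28-fold lower level. Elovl2, which carries precursors through the last elongations before DHA, stood at 83.6, 85.1 and 95.4 CPM in W1 to W3, at 45.4, 47.4 and 65.8 CPM in D1 to D3 and at 42.6, 58.4 and 58.0 CPM in H1 to H3. It fell by 0.73 (SE 0.14, adjusted p = 0.00327, edgeR without W4), and W4 held 42.7 CPM, just above the lowest rd10 library. Elovl5, which elongates shorter polyunsaturated chains and is expressed in many tissues, went the other way. It stood at 33.3, 38.9 and 35.6 CPM in W1 to W3 and between 52.8 and 58.8 CPM in the 6 rd10 libraries, with W4 at 57.9 CPM. Its log2 fold change in rd10 DMSO was 0.67 (SE 0.08, adjusted p = 0.000322, edgeR without W4).

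Fads1 and Fads2 are neighbouring genes for the front-end desaturases that put double bonds into polyunsaturated fatty acids, Fads2 at the first step of the pathway and Fads1 later. Fads1 stood at 74.0, 68.8 and 79.0 CPM in W1 to W3 and at 124 CPM in W4. It was at 135, 120 and 138 CPM in rd10 DMSO and at 118, 107 and 105 CPM in rd10 HAL, so the treated libraries all lay under the vehicle libraries while both stayed above W1 to W3. Fads2 stood at 87.0, 97.2 and 101 CPM in W1 to W3, at 169, 157 and 128 CPM in D1 to D3 and at 164, 124 and 123 CPM in H1 to H3, with W4 at 167 CPM. D1, D2 and H1, the rd10 libraries of batch 1, were the 3 highest of the 6 rd10 libraries. Both genes were higher in rd10 DMSO, Fads1 by 0.84 (SE 0.08, adjusted p = 0.000107) and Fads2 by 0.68 (SE 0.11, adjusted p = 0.00122; edgeR without W4).

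Mfsd2a, the lysophosphatidylcholine transporter that brings DHA across the endothelium of the blood-retina barrier and into pigment epithelium, was the lowest of the 10 genes per kilobase of transcript. It stood at 4.55, 3.58 and 3.21 CPM in W1 to W3, which rested on 96, 71 and 55 counts. It was at 9.21 CPM in W4, at 11.5, 11.2 and 11.1 CPM in D1 to D3 and at 10.9, 14.1 and 12.2 CPM in H1 to H3. Every rd10 library lay above every WT library, W4 included. The log2 fold change in rd10 DMSO was 1.58 (SE 0.16, adjusted p = 0.000153, edgeR without W4), the largest rise of the 10 genes in that fit. Acsl6, which joins DHA to coenzyme A and keeps it in neurons and photoreceptors, stood at 329, 341 and 361 CPM in W1 to W3, at 218, 227 and 271 CPM in D1 to D3 and at 213, 228 and 239 CPM in H1 to H3. It fell by 0.52 (SE 0.09, adjusted p = 0.00229, edgeR without W4), the smallest of the 6 decreases, with W4 at 223 CPM.

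The acyltransferases place fatty acids on the glycerol backbone. Agpat3, which prefers DHA as its acyl donor, had the highest level per kilobase of the 10 genes in W1 to W3 and the largest fall. W1, W2 and W3 held 1971, 1978 and 2002 CPM (mean 1984 ± 16.0, SD, n = 3). The rd10 libraries held 351, 361 and 570 CPM (D1 to D3) and 336, 499.5 and 497 CPM (H1 to H3), and W4 held 314 CPM. Agpat3 fell by 2.20 (SE 0.19, adjusted p = 7.73e-05, edgeR without W4), a 4.61-fold lower level. Lpcat1, a lysophosphatidylcholine acyltransferase that makes saturated phosphatidylcholine and whose loss causes photoreceptor degeneration in mice, stood at 220, 235 and 225 CPM in W1 to W3. It was at 99.7, 103 and 107 CPM in D1 to D3, at 98.0, 116 and 107 CPM in H1 to H3, and at 94.7 CPM in W4. It fell by 1.12 (SE 0.06, adjusted p = 1.57e-05, edgeR without W4), with the smallest standard error of the 10 genes.

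Adipor1 is a membrane receptor with ceramidase activity that sustains DHA in photoreceptors and pigment epithelium. It stood at 635, 627 and 658 CPM in W1 to W3 and at 137, 135 and 192 CPM in D1 to D3. H1, H2 and H3 held 131, 179.6 and 164 CPM and W4 held 117 CPM, under every rd10 library. Adipor1 fell by 2.04 (SE 0.14, adjusted p = 3.6e-05, edgeR without W4), a 4.11-fold lower level. Its sister receptor Adipor2 fell by 0.37 (SE 0.07, adjusted p = 0.00212) in the same fit.

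The treated rd10 retinas were set against the same WT libraries, so the values below share their controls with those above. Without W4, the same 4 genes were called higher and the same 6 lower, where 35.7% of 11699 genes were called higher, 36.2% lower and 71.9% in either direction. The log2 fold changes were -2.16 for Agpat3, -2.02 for Adipor1, -1.999 for Elovl4, -1.08 for Lpcat1, -0.73 for Elovl2 and -0.60 for Acsl6, and 0.52 for Fads2, 0.57 for Fads1, 0.66 for Elovl5 and 1.70 for Mfsd2a, with standard errors of 0.06 to 0.17. With W4 in the fit, 1 gene in all was called (0.00855%), Gm45837, named after its value was seen and none of the 10, and 4050 genes had an unadjusted p under 0.05. The adjusted p of the 10 genes was then 0.135 to 0.392.

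**Figure D2:**
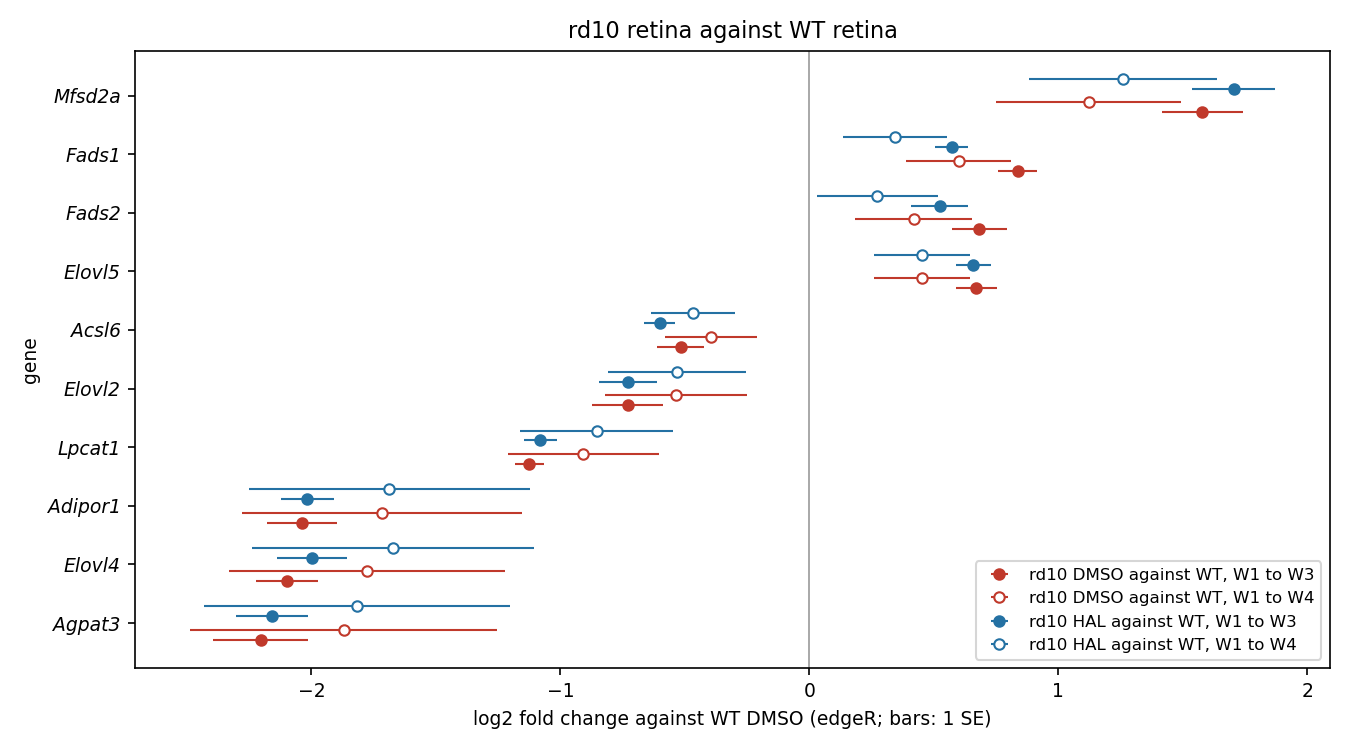
Log2 fold change of each gene in rd10 DMSO (red) and rd10 HAL (blue) against WT DMSO, with 1 standard error; filled points use W1 to W3 and open points W1 to W4. Leaving out W4 moved each value away from 0 and narrowed its error, and the direction of each gene was the same in all 4 fits, with Agpat3 the lowest and Mfsd2a the highest.

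Markers of other cell types moved with the genotype, beside a background of 32.3% of all genes called higher and 29.9% lower in rd10 DMSO without W4, and their part in the values of the 10 genes was not tested. None of the cell type lists had a measured marker under 1 CPM in every library. Of the 20 rod markers, 19 were called lower in rd10 DMSO without W4. The summed level of 14 cone markers was 3096 to 3262 CPM in W1 to W3 and 2663 to 3390 CPM in rd10, so the groups overlapped, with 6 markers called higher and 4 lower. That of 14 Muller glia markers was 5252 to 5475 CPM in W1 to W3 and 8881 to 10744 CPM in rd10, with 13 called higher, and all 12 gliosis genes were called higher. The 10 measured endothelial markers summed to 542 to 549 CPM in W1 to W3 and 756 to 955 CPM in rd10, with 4 called higher in rd10 DMSO and 7 in rd10 HAL, where 35.7% of all genes were. The 12 bipolar markers summed to 2031 to 2136 CPM against 3175 to 3831 CPM, the 12 measured amacrine and horizontal cell markers to 1481 to 1528 CPM against 2201 to 2510 CPM, and the 9 measured ganglion cell markers to 991 to 1075 CPM against 1222 to 1487 CPM. The 7 measured microglial markers rose from 53.6 to 59.3 CPM to 202 to 243 CPM, though Aif1, Tyrobp, Trem2, P2ry12, Cd68 and Tmem119 were not among the genes of the table. The 9 measured pigment epithelium markers varied within groups, from 75.0 to 363 CPM in W1 to W3, from 224 to 740 CPM in rd10 DMSO and from 184 to 305 CPM in rd10 HAL. Of the shorter lists, 4 pericyte markers summed to 933 to 995 CPM in W1 to W3 and 263 to 329 CPM in rd10, although 3 of the 4 were called higher and 1 lower (median log2 fold change 0.54, lowest -2.75). The sums were, in the same order, 40.2 to 86.1 CPM and 105 to 171 CPM for 4 astrocyte markers (3 called higher), 27.3 to 33.5 CPM and 65.3 to 92.2 CPM for 4 lens markers (1 called higher of 3 tested, with a median log2 fold change of -0.75), and 34.2 to 60.3 CPM and 11.8 to 96.5 CPM for 3 blood markers (3 called lower in rd10 DMSO).

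Scaling shifted the fold changes by a common amount. With library size alone in place of TMM, the median of all genes in rd10 DMSO without W4 was 0.19 instead of -0.01, and the calls were 5409 higher and 2031 lower instead of 3778 and 3502. The 10 genes kept their directions, and relative to that median Acsl6 (-0.31) and Elovl2 (-0.52) stayed below it and Elovl5 (0.88), Fads2 (0.89), Fads1 (1.04) and Mfsd2a (1.78) above it. With batch as a term and without W4, the 10 values ran from -2.47 for Agpat3 to 1.59 for Mfsd2a and all 10 were called. In batch 1 alone, D1 and D2 differed from W1 to W3 by -2.48 in mean log2 CPM for Agpat3, -2.26 for Elovl4, -2.23 for Adipor1, -1.16 for Lpcat1, -0.92 for Elovl2 and -0.63 for Acsl6, and by 0.71 for Elovl5, 0.78 for Fads2, 0.79 for Fads1 and 1.58 for Mfsd2a. The titles also carry set tags, set1 for W1 to W3, set1_5 for W4, set2 for D1, D2 and H1, last_rd10 for H2 and H3 and final_rd10 for D3. Genotype and set therefore cannot be told apart within batch 1, nor treatment and set within batch 2, and the batch term does not hold the set constant.

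To compare levels between genes, CPM was divided by the length of the transcripts in kilobases. In W1 to W3 Agpat3 led at 419 ± 3.38 CPM per kilobase (SD, n = 3), followed by Adipor1 at 203 ± 5.19 and Elovl4 at 172 ± 7.04. Acsl6 (72.3 ± 3.36) and Lpcat1 (70.7 ± 2.39) overlapped in their ranges, as did Elovl2 (22.9 ± 1.67) and Fads1 (22.7 ± 1.57). Fads2 lay between these pairs at 30.6 ± 2.36, and Elovl5 at 12.9 ± 1.01 and Mfsd2a at 1.77 ± 0.326 closed the order. In rd10 DMSO Agpat3 still led at 90.3 ± 26.1 CPM per kilobase, but Acsl6 (50.2), Adipor1 (49.0), Fads2 (48.7), Fads1 (40.2) and Elovl4 (40.0) followed with each neighbouring pair overlapping. Fads2 thus stood above Lpcat1 (32.2) in rd10 DMSO and below it in WT. In rd10 HAL the 6 genes below Agpat3 ran from Adipor1 at 50.1 to Lpcat1 at 33.4 CPM per kilobase, again with each neighbouring pair overlapping.

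**Figure D3:**
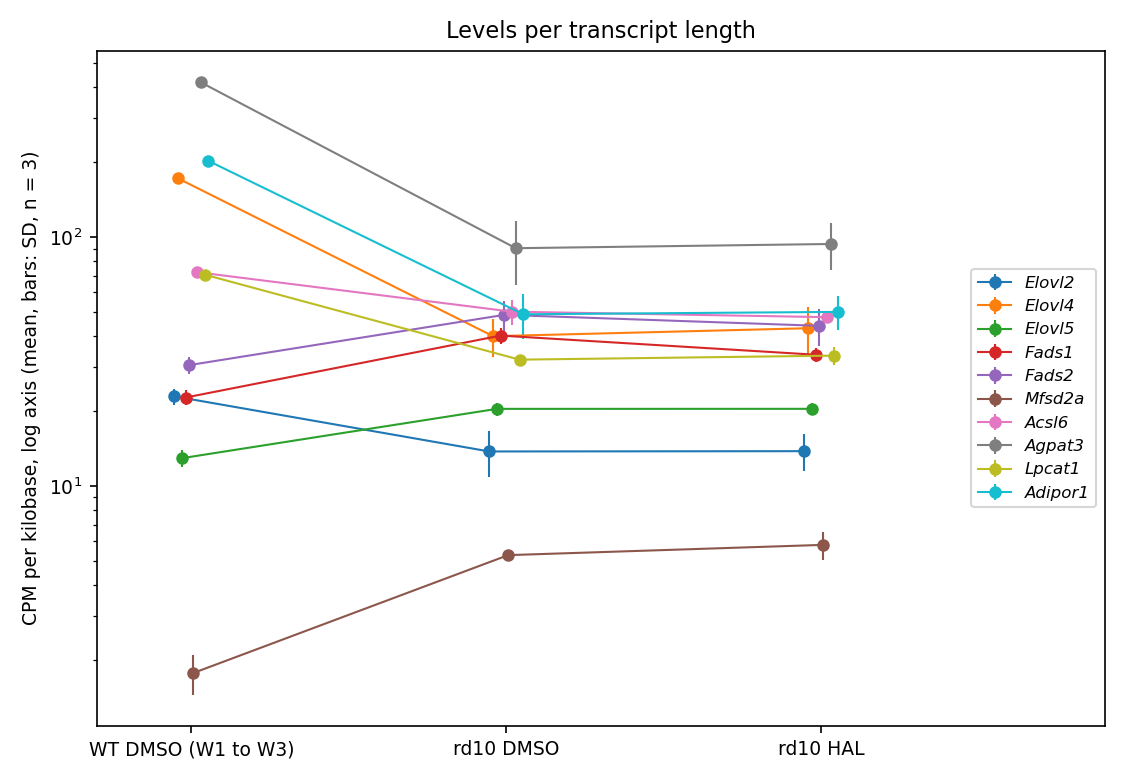
Mean level per kilobase of transcript (log axis, CPM per kilobase, bars are the SD of 3 libraries) of the 10 genes in WT DMSO without W4, rd10 DMSO and rd10 HAL, 1 line a gene. The genes spread from 1.77 to 419 in WT and from 5.27 to 90.3 in rd10 DMSO, with 6 genes between 32.2 and 50.2 there.

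The question of the drug was put to the 6 rd10 libraries. Halofantrine moved none of the 10 genes past the threshold: edgeR called 0 of 11692 genes (0.0%), with 557 at an unadjusted p under 0.05, and DESeq2 called 3, named after their values were seen (Gm42047, ENSMUSG00000118841 and ENSMUSG00000118866). The 10 genes had log2 fold changes of -0.26 to 0.14 and adjusted p of 0.883 to 0.997, with a median of 0.02 against -0.0045 over all genes. Fads1 had the smallest p of the 10, at 83.7% of the vehicle level (log2 fold change -0.26, SE 0.08, unadjusted p = 0.0135, adjusted p = 0.883, edgeR). It was also the only member whose HAL and DMSO libraries did not overlap, which held for 13.1% of all genes tested. Its difference was -0.11 in batch 1 and -0.38 in batch 2, in mean log2 CPM, and in batch 2 treatment and set tag cannot be told apart. Pigment epithelium markers had a median log2 fold change of -0.74, with 3 of 9 at an unadjusted p under 0.05 (edgeR). Gliosis genes had a median of -0.23 (3 of 12), and the 3 tested blood markers had one of 1.45 (0 of 3). The medians of the other cell type lists lay between -0.14 (astrocyte) and 0.14 (rod), with 1 Muller glia and 1 endothelial marker at such a p. No marker was called, and the part of these markers in the 10 genes was not tested. For Agpat3, Elovl4, Adipor1 and Elovl2 the log2 fold changes of 0.06, 0.11, 0.03 and 0.01 had standard errors of 0.17 to 0.22, wider than those of Elovl5 (0.07), Lpcat1 (0.08), Fads1 (0.08) or Acsl6 (0.09). With batch as a term the values of Agpat3 (-0.14), Elovl2 (-0.15), Adipor1 (-0.11) and Elovl4 (-0.06) turned negative, Acsl6 moved to -0.14 and Fads2 from -0.15 to -0.02. No gene of the 11692 was called by edgeR in that fit, with 1952 at an unadjusted p under 0.05. Among these were 4 of the 10 genes, all lower with HAL (Fads1, Elovl2, Agpat3 and Acsl6), where without the term Fads1 alone was. The adjusted p of these 4 was 0.268 to 0.287 (edgeR).

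More genes were called between the batches of the rd10 retinas than between the treatments. With treatment as a term, batch 2 was higher in Agpat3 by 0.62 (SE 0.05, adjusted p = 0.00168), in Elovl2 by 0.47 (SE 0.05, adjusted p = 0.00536), in Adipor1 by 0.44 (SE 0.06, adjusted p = 0.0108) and in Elovl4 by 0.48 (SE 0.07, adjusted p = 0.0149), and lower in Fads2 by 0.38 on the log2 scale (adjusted p = 0.0139, edgeR). With each library left out in turn, Agpat3 was called in 6 of 6 fits, Elovl2, Elovl4 and Adipor1 in 5 (without D3 their adjusted p was 0.0521, 0.0619 and 0.0952), and Fads2 in 3, with an adjusted p of 0.0619 without D3, 0.0553 without H2 and 0.0576 without H3. Thus 4 of 10 genes were called higher in batch 2, where 3.16% of 11692 genes were, and 1 lower, where 1.63% were, so 5 of 10 against 4.78% in either direction. The batches did not overlap in 8 of the 10 genes, Fads1 and Mfsd2a being the exceptions, while this held for 27.9% of all genes. Acsl6 (0.21, adjusted p = 0.0769), Lpcat1 (0.13, adjusted p = 0.219), Mfsd2a (0.12, adjusted p = 0.554), Elovl5 (-0.11, adjusted p = 0.269) and Fads1 (-0.02, adjusted p = 0.883) were not called. Acsl6 was called without H1 (0.28, adjusted p = 0.0227), by DESeq2 (adjusted p = 0.0232) and in the added edgeR fit of all libraries but W4 (adjusted p = 0.0418). Within DMSO alone D3 exceeded D1 and D2 by 0.68 for Agpat3, and within HAL alone H2 and H3 exceeded H1 by 0.57.

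Rod markers moved with the batch. Their sum was 5131 to 5602 CPM in D1, D2 and H1 and 10089 to 14313 CPM in D3, H2 and H3, and 19 of 20 were called higher in batch 2. Pde6b was higher by 1.36 (SE 0.15, adjusted p = 0.00536, edgeR). The part of this difference in that of the 10 genes was not tested. Cone markers summed to 2663 to 2842 CPM in batch 1 and 3170 to 3390 CPM in batch 2 (3 called higher), and Muller glia markers to 9822 to 10744 CPM and 8881 to 10436 CPM (3 called lower). In the same order, bipolar markers summed to 3676 to 3831 CPM and 3175 to 3529 CPM (3 called lower). Amacrine and horizontal cell markers summed to 2426 to 2510 CPM and 2201 to 2390 CPM (2 called lower). Pericyte markers summed to 263 to 282 CPM and 312 to 329 CPM (1 called higher), although their median log2 fold change was -0.06 (lowest -0.24, highest 0.69). The sums of Muller glia markers and of the remaining lists overlapped between the batches. In these remaining lists, 2 gliosis genes were called higher and 1 lower, and 1 endothelial marker was called lower. The part of these markers in the 10 genes was not tested. The calls rested on the fit of the 6 rd10 libraries: with all 10 libraries in 1 fit 0 genes were called, and with the same fit without W4 1415 genes were called, 6 of the 10 among them. Without D3, 88 genes were called instead of 559, and 1 of the 10.

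**Figure D4:**
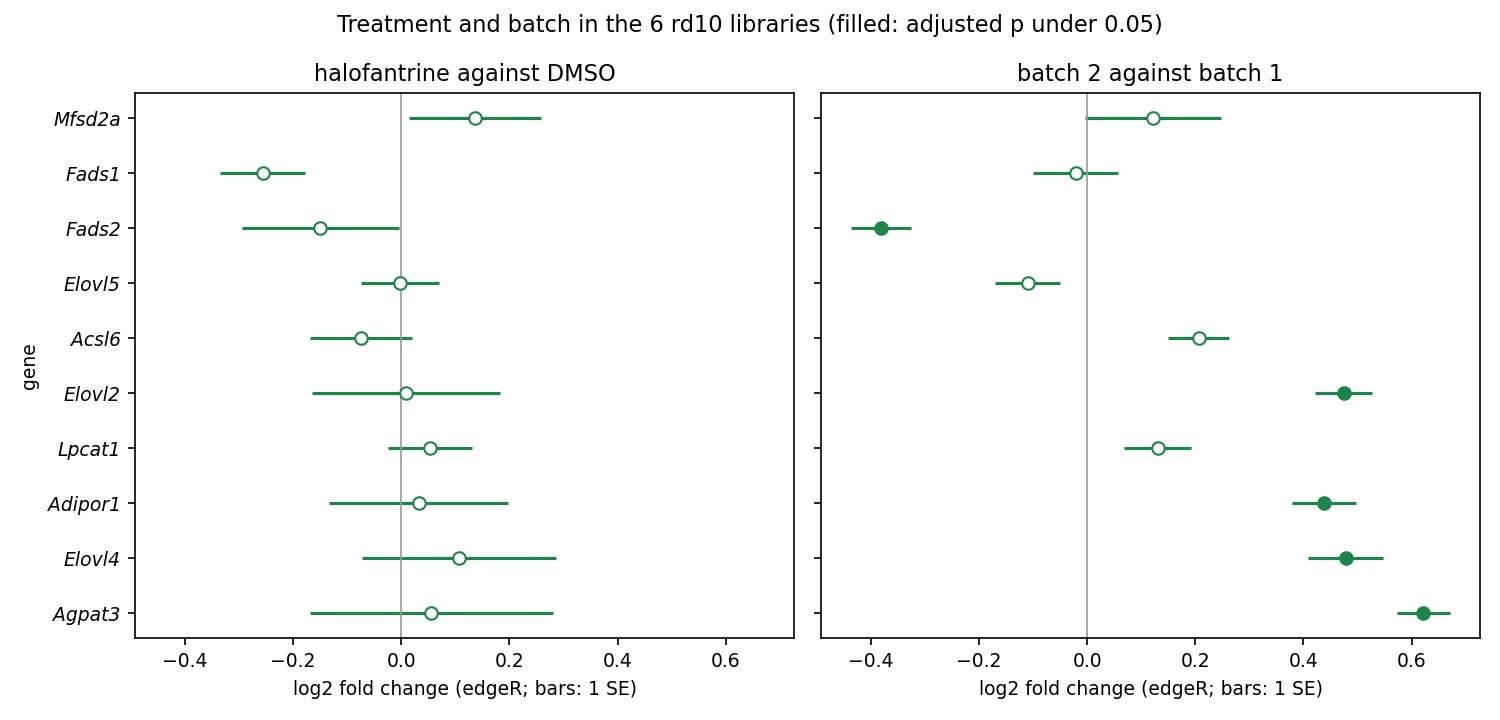
Log2 fold change with 1 standard error for halofantrine against DMSO (left) and batch 2 against batch 1 (right) in the 6 rd10 libraries, filled where the adjusted p was under 0.05. All 10 points are open on the left, and Agpat3, Elovl2, Elovl4, Adipor1 and Fads2 are filled on the right.

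The deposited transcript counts show which isoforms carried these levels. Elovl2, Elovl4, Elovl5 and Fads2 were almost wholly their first annotated transcript, with means of 97.9% to 99.8% of the rd10 count on it. In Agpat3 and Fads1 the main transcript took a larger share in every rd10 library than in W1 to W3. Agpat3-201 took 61.9%, 58.1% and 61.4% of the Agpat3 count in W1 to W3 and 70.1% to 74.7% in the 6 rd10 libraries, with W4 at 76.7%. Fads1-201 took 83.0%, 84.3% and 84.4% in W1 to W3 and 85.7% to 93.4% in rd10, with W4 at 87.4%. Without W4 the differences were 11.8 and 5.83 percentage points, each at the smallest p the exact two-sided permutation test of 6 against 3 libraries can give (0.0119), and the adjusted p over the 9 genes tested was 0.0536. With W4 in, the exact permutation p was 0.0524 for Agpat3 and 0.0143 for Fads1, with adjusted p of 0.236 and 0.129, so no share was called in either set. Without W4, p in Agpat3 and Fads1 could go no lower, so the lack of a call there decides nothing for these genes. Lpcat1-201 differed by -7.55 percentage points without W4 (exact permutation p = 0.190, adjusted p = 0.429), and its rd10 and WT libraries overlapped.

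The second most abundant transcript of each gene gave no call either. Its lowest adjusted p was 0.214 with W4 and 0.0714 without (Agpat3-211, Acsl6-204 and Fads1-202), and Lpcat1-202 had an exact permutation p of 0.176 with W4 and 0.0357 without (adjusted p = 0.321 and 0.0804). Without W4, Agpat3-211 was at the smallest p the exact permutation test can give (0.0119), so the lack of a call decides nothing for it. The tests of these second transcripts without W4 were added after the data were seen. Some transcripts differ in a known exon, and the shares by exon are given as values, since the exons were picked after the values were seen. Lpcat1-202, annotated as a target of nonsense-mediated decay, skips the second exon (chr13:73484261-73484403, plus strand, GRCm38). It took 31.2%, 21.5% and 36.6% of the Lpcat1 count in W1 to W3, 41.5% in W4, 45.8%, 37.2% and 38.9% in D1 to D3 and 35.4%, 37.5% and 36.5% in H1 to H3, so the highest WT library overlapped the lowest rd10 library. Acsl6-205, which begins at its own first exon of 130 bases (chr11:54319856-54319985, plus strand, GRCm38), took 12.2%, 15.8% and 10.6% in W1 to W3 and 0.238% to 6.72% in rd10, with W4 at 6.68%. The first exon of Agpat3-202 carried 8.52% to 10.5% in W1 to W3 and 4.37% to 7.52% in rd10.

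**Figure D5:**
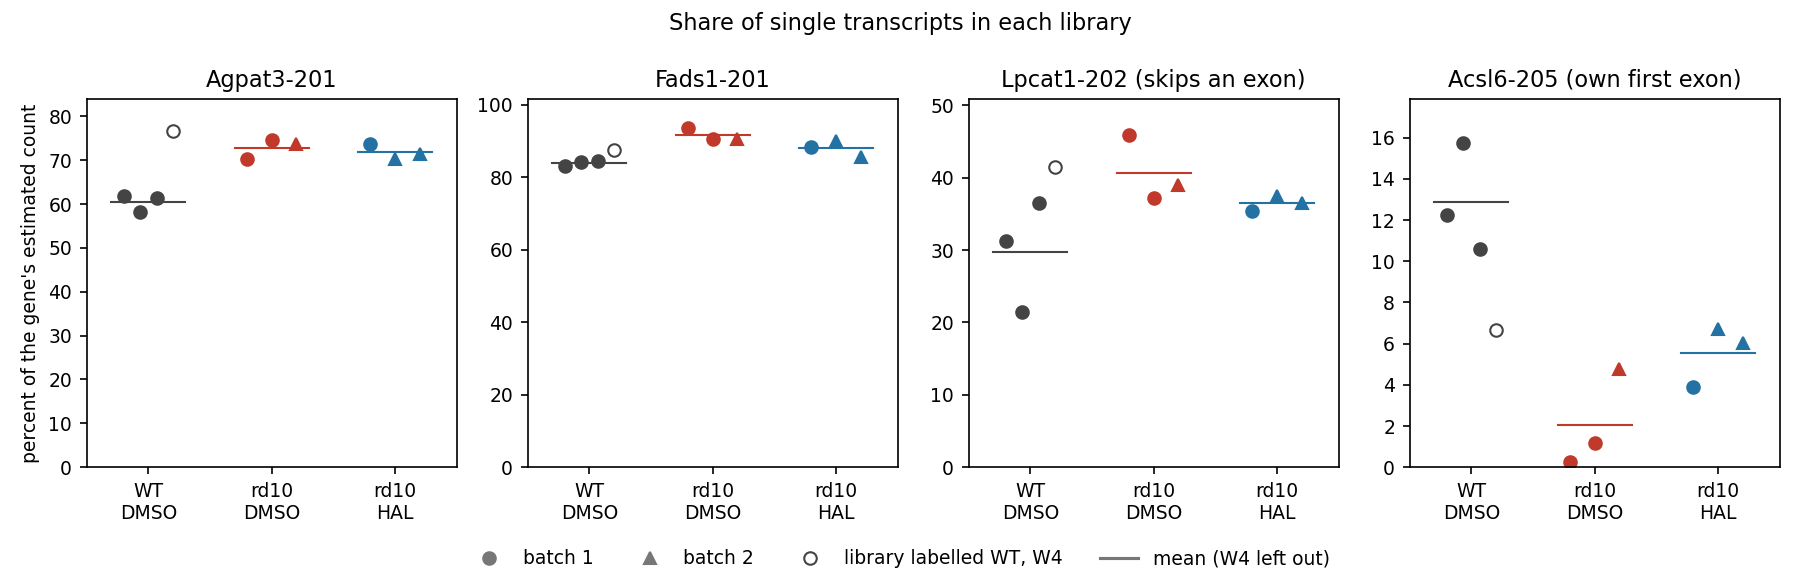
Percent of the gene's estimated count on Agpat3-201, Fads1-201, Lpcat1-202 and Acsl6-205 in each library (symbols as in the plot of levels). The rd10 libraries lie above W1 to W3 in the first and second panels and below them in the fourth, and overlap them in the panel of Lpcat1-202.

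Acsl6 also has a pair of alternative exons of 78 bases. They encode the gate of the fatty acid binding tunnel, a stretch in which acyl-CoA synthetase variants are known to differ. The exons are shown because they are a part in which Acsl6 transcripts differ, beside other parts such as the first exon. They lie at chr11:54336936-54337013 and chr11:54337071-54337148 (GRCm38, plus strand) and were read from reference transcripts of GENCODE M21, with the 32 positions at which they differ in capitals.
Acsl6 upstream exon: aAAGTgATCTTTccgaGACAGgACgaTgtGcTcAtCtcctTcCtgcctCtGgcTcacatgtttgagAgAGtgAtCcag
Acsl6 downstream exon: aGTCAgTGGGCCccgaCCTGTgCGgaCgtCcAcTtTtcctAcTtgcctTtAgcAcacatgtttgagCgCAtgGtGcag
They share 46 of 78 bases. Transcripts with the upstream exon took 71.4% to 74.1% of the Acsl6 count in W1 to W3 and 68.0% to 75.7% in rd10. Those with the downstream exon took 6.75%, 8.50% and 6.91% in W1 to W3 and 5.09% to 13.7% in rd10, with W4 at 15.2%. D3 had the lowest share of the downstream exon and lay apart from D1 and D2 at 11.4% and 11.5%, so the rd10 range spanned that of W1 to W3.

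Promoters were read for the genes that moved together, 250 bases before each start in RefSeq on GRCm38.p6, which gave 13 promoters for 9 of the 10 genes and no entry for Fads1. Both strands were searched for TAATCC, the letters read by photoreceptor homeodomain factors, for the GC box GGGCGG, the CCAAT box CCAAT and the E-box CACGTG. Shown in capitals are all matches, for Elovl4 and Lpcat1, which fell, and for Mfsd2a and Elovl5, which rose. They lie at chr9:83806306-83806555 (minus strand), chr13:73466981-73467230 (plus), chr4:122961189-122961438 (minus) and chr9:77917115-77917364 (plus).
Elovl4: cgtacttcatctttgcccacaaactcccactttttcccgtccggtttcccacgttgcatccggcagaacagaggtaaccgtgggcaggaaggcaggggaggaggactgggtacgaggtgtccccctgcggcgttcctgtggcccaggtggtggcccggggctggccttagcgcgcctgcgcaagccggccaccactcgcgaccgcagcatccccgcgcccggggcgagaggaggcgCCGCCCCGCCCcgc
Lpcat1: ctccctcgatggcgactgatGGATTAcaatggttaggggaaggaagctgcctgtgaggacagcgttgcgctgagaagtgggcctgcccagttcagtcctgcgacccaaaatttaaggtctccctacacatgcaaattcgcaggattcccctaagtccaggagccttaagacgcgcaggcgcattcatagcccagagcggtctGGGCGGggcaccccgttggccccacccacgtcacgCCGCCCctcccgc
Mfsd2a: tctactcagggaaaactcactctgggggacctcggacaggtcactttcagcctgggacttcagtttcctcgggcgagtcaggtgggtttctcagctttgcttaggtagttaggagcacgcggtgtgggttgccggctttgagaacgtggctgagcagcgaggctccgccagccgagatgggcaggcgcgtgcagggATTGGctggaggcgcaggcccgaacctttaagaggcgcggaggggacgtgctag
Elovl5: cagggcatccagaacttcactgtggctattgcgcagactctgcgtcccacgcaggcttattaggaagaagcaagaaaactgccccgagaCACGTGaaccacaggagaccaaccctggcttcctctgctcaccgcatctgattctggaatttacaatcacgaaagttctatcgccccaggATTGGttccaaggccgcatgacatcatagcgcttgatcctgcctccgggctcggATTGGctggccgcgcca
Elovl4 held 2 GC boxes that overlap, and Lpcat1 held 2 GC boxes and 1 TAATCC, read as GGATTA. Mfsd2a held 1 CCAAT box and Elovl5 held 2 CCAAT boxes, all read as ATTGG, and Elovl5 also held an E-box. The promoters shown were picked from the 13, and the others did not divide by direction in this way. Of the genes that fell, 1 of 2 promoters of Elovl2 (5 GC boxes), 1 of 2 of Adipor1 (2 GC boxes) and 1 of 3 of Acsl6 (2 GC boxes) held GC boxes without a CCAAT box, as those of Elovl4 and Lpcat1 did, and the other Elovl2 promoter held no motif. The promoter of Agpat3 held none of the 4 motifs, the other Adipor1 promoter and the other 2 of Acsl6 held both a GC box and a CCAAT box, and that of Fads2, which rose, held a GC box and no CCAAT box. Over the 13 promoters, TAATCC was found in 1, GGGCGG in 9, CCAAT in 5 and CACGTG in 1, and in 6.25%, 32.7%, 33.8% and 6.02% of 32851 mouse promoters of the same length. These are matches of letters, not sites of binding. Elovl2, Adipor1 and Acsl6 each gave more than 1 of the 13 promoters, so the promoters were not independent. The counts were not tested against the shares of all promoters.

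The genes nearest to each member over the 10 libraries, by the root mean square difference of centred log2 CPM, are given as a description. Whether near genes share a cell type was not tested. Elovl4 lay nearest to Bbs9 (0.04), Adipor1 (0.06) and Glmn (0.06), and Adipor1 to Vopp1, Bbs9 and Elovl4 (each 0.06), so these members were in each other's lists. Agpat3 lay nearest to Ppef2 (0.06), Jag1 (0.06) and D430042O09Rik (0.07), and Ppef2 is a photoreceptor phosphatase. Lpcat1 lay nearest to Slc25a33, Zfp444 and Pank4 (0.05 to 0.06), Elovl2 to Jam2, Hltf and Rpf1 (0.06 to 0.07), and Acsl6 to Ppp2r3a, Kpna3 and Btbd10 (0.03 each). Among the genes that were higher in rd10, Mfsd2a lay nearest to Peg10 (0.15), Vwf (0.17) and Slco2b1 (0.17), and Vwf is a product of endothelial cells. Fads1 lay nearest to Rbms3, Homer2 and Tmem255a, Fads2 to Tmem196, Ksr2 and Gm2a, and Elovl5 to Sept6 and Pcdh18, at 0.04 to 0.08.

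The rest of the lipid pathway was read from 10 lists of other genes, 106 of which were tested. In rd10 DMSO without W4, 40 of the 106 were called higher (37.7%) and 31 lower (29.2%), near the 32.3% and 29.9% of all genes. In rd10 HAL 41 (38.7%) and 35 (33.0%) were called, near the 35.7% and 36.2% of all genes. With W4 none was called in rd10 DMSO, and the gene of smallest p in each list (Hsd17b12, Fads3, Fabp12, Agpat5, Cds1, Pla2g5, Pex7, Paqr4, Ppara and Abca4) had an adjusted p of 0.187. Between the rd10 batches 6 of the 106 were called higher (5.66%) and 4 lower (3.77%), beside 3.16% and 1.63% of all genes. In the drug comparison none was called. There the genes of smallest p were Elovl7, Scd1, Acsl4, Gpam, Chpt1, Ptges3, Scp2, Mfrp, Nr1h2 and Atp8a1, at adjusted p of 0.883 to 0.910.

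The lists nearest to the elongases and desaturases are small, and their counts in rd10 DMSO without W4 stand beside 32.3% of all genes called higher and 29.9% lower. Of 7 other genes of the elongation cycle, 3 were higher and none lower: Elovl7 by 0.53, Elovl6 by 0.44 and the reductase Hsd17b12 by 0.42. Of 5 other desaturases, 4 were higher and none lower, led by Fads3 at 1.20 (SE 0.11, adjusted p = 8.19e-05), Fads6 at 0.71 and Scd1 at 0.68. The list medians were 0.24 and 0.68 against -0.01 over all genes. Scd2, a stearoyl-CoA desaturase, was lower in batch 2 by 0.43 on the log2 scale (adjusted p = 0.00973), the same direction as Fads2.

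In the same fit, the lists of activation, transport and esterification held calls in both directions, beside the 32.3% and 29.9% of all genes. Of 14 genes of fatty acid activation and transport, 6 were higher, led by the synthetases Acsl3 (0.72) and Acsl5 (0.92) and the acyl-CoA binding protein Dbi (0.58). The 3 that were lower were the fatty acid binding protein Fabp12 (-2.52, SE 0.21), Acsl1 (-0.997, SE 0.12) and the peroxisomal Acbd5 (-0.36). Of 14 other glycerolipid acyltransferases, 7 were higher, among them Mboat1 (0.74), Lpcat4 (0.65) and Agpat4 (0.90), and 5 lower, among them Agpat5 (-0.80), Lclat1 (-0.56) and Gpam (-0.36). Of 16 genes of head group synthesis, 4 were higher, among them Chpt1 (0.50), Ptdss1 (0.33) and Chka (0.33), and 5 lower. Cds1, a CDP-diacylglycerol synthase, fell by 2.10 (SE 0.16), and the lipins Lpin1 and Lpin2 by 0.42 and 0.38. Fabp12, Acsl1 and Cds1 were also higher in batch 2 of the rd10 retinas, by 0.76, 0.35 and 0.53 (adjusted p = 0.00688, 0.0253 and 0.0238, edgeR), and Agpat1 was lower (-0.42).

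The lists of release, oxidation, regulation and membrane handling come from rd10 DMSO without W4 as well, with the same 32.3% and 29.9% of all genes beside them. Of 13 genes of fatty acid release and oxygenation, 4 were higher, among them the lipase Pnpla2 (0.74), Abhd12 (0.33) and Pla2g12a (0.35), and 3 lower, Pla2g7 (-1.98), Pla2g5 (-0.77) and Pla2g4b (-0.79). Of 14 genes of peroxisomal oxidation, which finishes DHA by chain shortening, 5 were higher, among them Crot (0.58), Abcd2 (0.44) and Abcd3 (0.41), and 5 lower, among the latter Acaa1a (-0.59), Acot8 (-0.56) and Scp2 (-0.23). Of 6 genes around the adiponectin receptors and membrane fluidity, Cdh13, which binds adiponectin, was higher by 1.28 and Paqr9 by 0.29, and Paqr4 and Adipor2 were lower. Of 12 lipid transcription factors and their regulators, 4 were higher, among them Mlxip (0.54), Insig2 (0.24) and Rxrg (0.49). The 5 that were lower included Ppara (-3.07, SE 0.33), Rxra (-0.80) and Ppard (-0.67). Ppara was higher by 1.16 in batch 2 (adjusted p = 0.0346), as were Pla2g7 (0.49) and Abca4 (0.66), and the sterol regulators Srebf2 (-0.54) and Insig1 (-0.32) were lower there. Of 5 genes listed for moving lipids across membranes, Abca4, the retinoid and lipid flippase of rod discs, fell by 2.75 (SE 0.20). The phospholipid flippase Atp8a2 fell by 1.54 and Tmem30a by 0.15, while Ano4 was higher by 0.58.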

How the data were processed

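Polyadenylated RNA of 10 mouse retina libraries was sequenced from stranded libraries made of 100 ng total RNA with an integrity number of at least 9. The authors deposited estimated counts per transcript and per gene, made with Kallisto on Ensembl 115 (their notes name GRCm39, kallisto, edgeR and limma without versions), and CPM per gene. The authors deposited the CPM as a scaled signal, a constant multiple of the counts in each library, which served as an alternative. Tables of the authors' own comparisons (fold changes and p-values) were not used.

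Estimated counts were rounded and tested with edgeR 4.0.16 (quasi-likelihood test, TMM scaling, low counts filtered) in R 4.3.3, with Benjamini-Hochberg adjustment over all genes tested and calls at an adjusted p under 0.05. The standard error is the log2 fold change divided by the root of F. DESeq2 1.42.0, limma 3.58.1, other scalings, no filter, batch as a term and leaving out each library were alternatives. Those combining another choice with leaving out W4, the fit of 9 libraries and the grouping of transcripts by exon were added after seeing the data. Transcript shares were tested with exact two-sided permutation tests over libraries, for genes with at least 100 counts in each. The fits were tested on simulated data.

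Of each other lipid list, up to 3 called genes per direction with the smallest p were named, or the gene with the smallest p where none was called, and for each of the 10 genes the 3 nearest in centred log2 CPM, of which 1 is not reported here. The 10 genes and the lists were chosen with earlier results of these data known. Promoters came from RefSeq (GRCm38.p6) and exons and lengths from GENCODE M21 (GRCm38), another build than that of the files. Counts of 15512212 to 38160436 per library set the precision, and intervals of counting were not computed.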

Additional observations from a re-analysis of the deposited data

Results flagged for a closer look

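W4 lay far from the other WT libraries. Its gap to the next library, as a share of the range of the 4 WT libraries, was 0.914 for Elovl4, 0.982 for Agpat3, 0.893 for Lpcat1 and 0.941 for Adipor1, above Dixon's critical value for 4 samples, which chance passes in about 1 of 20 groups. W4 was the lowest library in each of these 4 genes. In the remaining members W4 was also the extreme library, at gaps of 0.769 (Acsl6) to 0.823 (Fads2), under that value. It was the lowest in Elovl2 and Acsl6 and the highest in Elovl5, Fads1, Fads2 and Mfsd2a. The share of all genes in which W4 passed the value was not computed.

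In 3 genes every HAL library lay on one side of every DMSO library in batch 1 and on the other side in batch 2, and the difference between batches was not tested. H1 was the only HAL library of batch 1 and D3 the only DMSO library of batch 2. The share of all genes with this pattern was not computed, so the count is not read as a result about these genes. In batch 2 treatment and the set tag of the titles cannot be told apart. The difference in mean log2 CPM was -0.00555 in batch 1 and 0.0808 in batch 2 for Elovl5, -0.0604 and 0.24 for Mfsd2a, and -0.0491 and 0.0637 for Lpcat1. The mean differences of Elovl4 (-0.128 and 0.0022) and Fads2 (0.0091 and -0.0573) also had opposite signs, with HAL and DMSO libraries overlapping in batch 1 or batch 2.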

How the results depend on the processing

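The counts of called genes turned on W4. In rd10 DMSO against WT, 0 genes were called with W4, DESeq2 called 589, and leaving out 1 library gave 0 to 7280. Without W4, DESeq2 called 7336, limma-voom 7388, library size alone 7440, batch as a term 8455 and the fit of 9 libraries 7753. In rd10 HAL against WT, 1 gene was called with W4, DESeq2 called 2221, limma-voom, all 10 libraries in 1 fit and batch as a term 0 each, and leaving out 1 library gave 0 to 8408. Without W4, these were 8171 (DESeq2), 8421 (limma-voom), 8414 (library size alone), 7807 (batch as a term) and 7787 (9 libraries). Of the 10 genes, DESeq2 with W4 called 3 in rd10 DMSO and 5 in rd10 HAL, leaving out 1 library gave 0 to 10 in either, and each of the 5 added fits without W4 called 10.

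For halofantrine against DMSO, DESeq2 called 3 genes and leaving out 1 library gave 0 to 7. With batch as a term Agpat3 (-0.14), Elovl2 (-0.15), Adipor1 (-0.11), Elovl4 (-0.063) and Elovl5 (0.036) turned sign. Leaving out 1 library gave -0.063 to 0.32 for Agpat3, -0.13 to 0.032 for Acsl6, -0.085 to 0.20 for Elovl2, -0.011 to 0.11 for Lpcat1, -0.069 to 0.22 for Adipor1, -0.033 to 0.27 for Elovl4 and -0.046 to 0.045 for Elovl5. Fads2 then ran from -0.30 to -0.058 and Mfsd2a from 0.033 to 0.22, without a change of sign. For batch 2 against batch 1, 559 genes were called, 1429 by DESeq2, 218 with no treatment term, 0 with all 10 libraries in 1 fit, 1415 with that fit without W4, and 88 (without D3) to 2635 (without H1) with 1 library left out. Of the 10 genes, 5 were called, 0 with all 10 libraries in 1 fit and 1 to 6 with 1 library left out. Fads1 then ran from -0.15 to 0.11, Mfsd2a from -0.035 to 0.27, Acsl6 from 0.13 (without D3) to 0.28 (without H1), Lpcat1 from 0.074 (without H1) to 0.19 (without D3) and Elovl5 from -0.15 (without H1) to -0.067 (without D3). The causes were not tested. No paired analysis was possible because no number in the labels is tied to a shared litter, day or mouse, and replicate numbers were given in accession order. Batch was fitted as a term instead. Mfsd2a, at 55 to 96 counts in W1 to W3, was the gene most limited by depth.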
